A study of Homo sapiens with 6 samples.

Results

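The genes described here build the machinery that copies DNA and the enzymes that make its building blocks. They were 49 genes chosen by name for these roles, with earlier results of these data known. A gene was kept if its row in the count table held at least 10 counts in at least 3 of the 6 libraries. All 49 were kept, of 62754 genes in the table and 19874 that had enough counts to be tested. The members were HK-2 transcripts measured by bulk RNA sequencing. HK-2 is a human proximal tubule epithelial line, immortalised with papillomavirus genes whose products inactivate p53 and RB. All libraries came from cells given Cisplatin, a platinum drug that crosslinks DNA, and an siRNA. The control group carried negative control siRNA (CP+siNC, 3 libraries) and the other group carried siRNA against NAT10 (CP+siNAT10, 3 libraries). NAT10 is an acetyltransferase that acts on RNA and on proteins, and the sequence of its siRNA is not given in the sources used here. A group without Cisplatin was not analysed here, so each difference below is between siRNAs in cells under the drug, and the dose and time of the drug are not given in the labels. The labels do not say that the libraries of a group came from separate cultures, so p-values measure the spread between these libraries, which may be technical, and an exact permutation of 3 against 3 libraries cannot give a p-value below 0.10.

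Replication is prepared in G1, when the origin recognition complex, CDC6 and CDT1 load the MCM2-7 helicase onto DNA, and it starts in S phase, when CDC45, GINS and MCM10 turn the loaded helicase on. DNA polymerase alpha with its primase lays down primers, polymerases epsilon and delta extend them on the clamp PCNA, RPA covers single-stranded DNA, and ribonucleotide reductase and thymidylate synthase supply deoxynucleotides. Many of these genes are transcribed at the border of G1 and S phase under E2F factors, and in the kidney tubule they are otherwise quiet until cells re-enter the cycle after injury.

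The libraries held 19321665, 21602988 and 19464027 counts in CP+siNC and 20793709, 21531774 and 25192736 counts in CP+siNAT10. Levels are given as CPM, which are counts relative to a library size scaled by TMM, a method that sets the bulk of genes equal between libraries. The targeted gene, NAT10 (ENSG00000135372), measured 75.8, 71.4 and 73.2 CPM in the CP+siNC libraries and 41.3, 40.5 and 42.4 CPM in the CP+siNAT10 libraries. Its log2 fold change was -0.82 (SE 0.0426, adjusted p = 2.79e-15). Here and below the p-values are those of the quasi-likelihood test of edgeR, adjusted by Benjamini-Hochberg over all genes tested. Every CP+siNAT10 library lay below every CP+siNC library, with 56.4% of the control level left.

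The largest falls among the members were those of RRM2, the regulated subunit of ribonucleotide reductase, at 60.5% of the CP+siNC level, and CDT1, which brings the helicase to origins, at 67.4%. The largest rises were those of MCM5, a helicase subunit, at 144% of the CP+siNC level, and POLE, the catalytic subunit of polymerase epsilon, at 129%. At an adjusted p under 0.05, 17 of the 49 members were lower in CP+siNAT10, which is 34.7% beside 22.3% of all genes tested. A further 10 members, 20.4%, were higher beside 21.8% of all genes tested, and 22 members were not called. With a fold change of more than 1.2 required as well, 7 members were lower and 2 were higher, which is 14.3% and 4.08% beside 14.9% and 13.7% of all genes tested. The groups did not overlap for 19 members that were lower and 10 that were higher, 38.8% and 20.4% beside 25.7% and 25.7% of all genes tested. The share of members lower by adjusted p was thus above that of all genes, while the share past 1.2-fold was near the background for falls and below it for rises. That background was not matched to the members in level, length or gene type. It includes the shortest class of genes by gene model length, which held no member. In that class 14.5% of genes were lower and 8.53% higher by adjusted p. Of the 49 members, 20 had a log2 fold change under 0.1 in size and 3 had one over 0.5.

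The median log2 fold change of the members was -0.067, beside 0.007 for all genes tested. It was -0.042 without CP+siNAT10 replicate 3 and -0.045 without CP+siNC replicate 3. Summed over the 49 members, the level was 4423, 4403 and 4426 CPM in CP+siNC and 4274, 4299.9 and 4272 CPM in CP+siNAT10, or 96.9% of the control, and the same sum over all genes tested was 97.4%. As a share of the raw counts of each library, the members took 0.431%, 0.436% and 0.438% in CP+siNC and 0.433%, 0.437% and 0.430% in CP+siNAT10. Those raw shares overlap between the groups, so the lower sum appears on the TMM scale and not in the raw shares. With library size as the only scaling, 4 members were lower and 4 higher past both limits, 8.16% each beside 12.7% and 16.4% of all genes tested, so under that scaling both shares of members were below the background. In bulk RNA, fewer cells in S phase and less RNA of these genes per cell cannot be told apart.

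**Figure D1:**
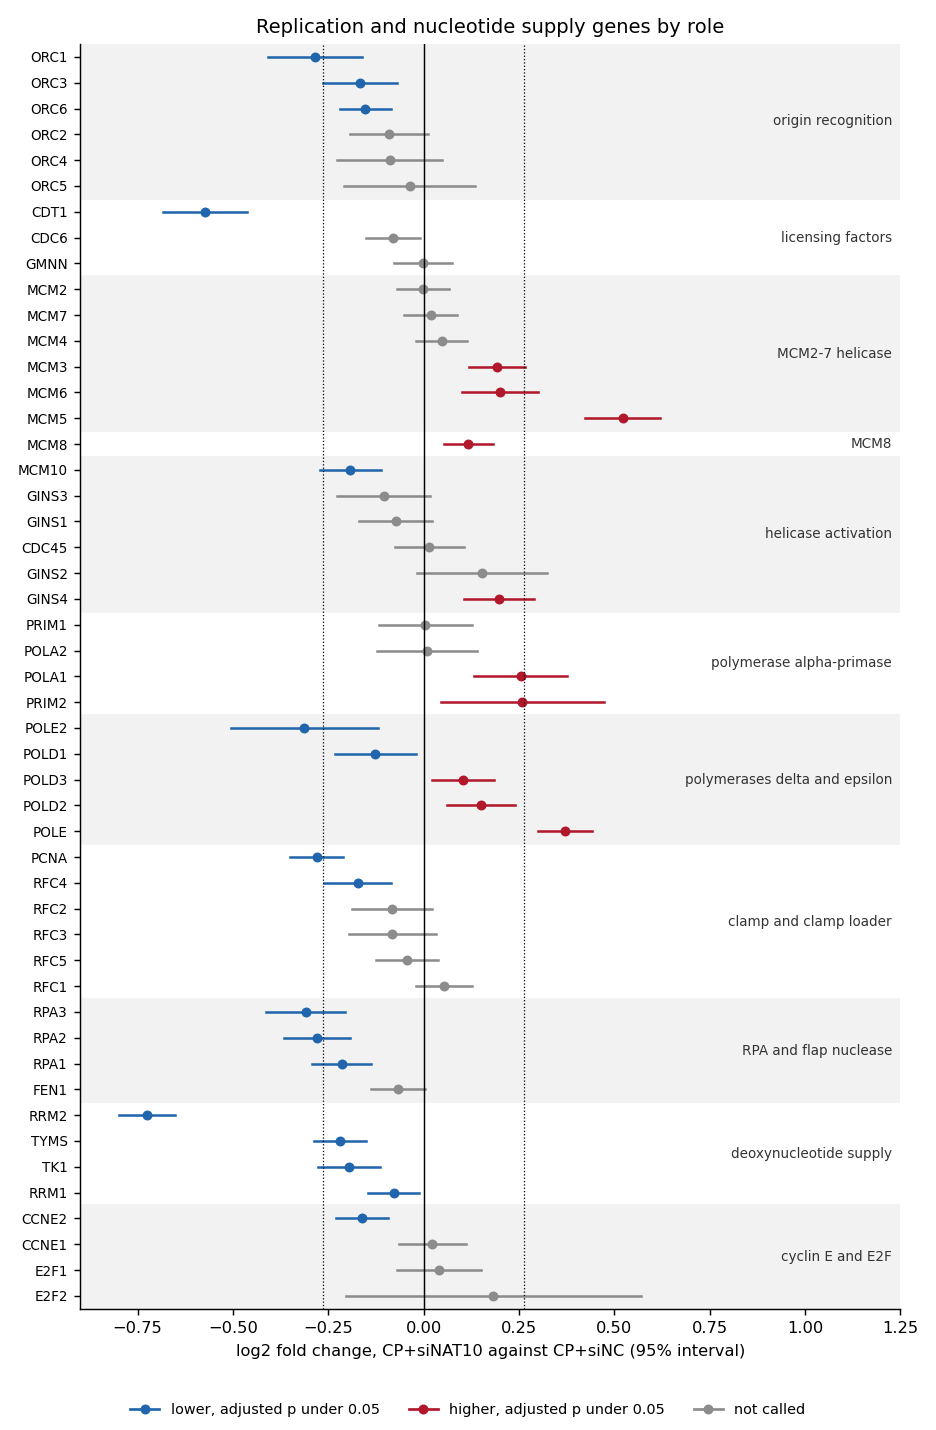
Log2 fold change of each of the 49 members in CP+siNAT10 against CP+siNC, with 95% intervals, grouped by role; dotted lines mark a fold change of 1.2 in either direction. All members of deoxynucleotide supply, origin recognition and RPA with FEN1 lie left of 0, and MCM5 at 0.52 and RRM2 at -0.73 lie farthest out on each side.

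All 4 members of deoxynucleotide supply were lower, although the call of RRM1 was fragile. RRM2 (ENSG00000171848, chromosome 2, 10120698 to 10211725 on GRCh38) measured 204, 199 and 205 CPM in CP+siNC and 129, 119 and 120.0 CPM in CP+siNAT10. Its log2 fold change was -0.73 (SE 0.0357, edgeR adjusted p = 1.01e-15), the largest fall of any member. The groups lie far apart relative to the spread of either. TYMS, the thymidylate synthase that makes the precursor of dTTP, measured 173, 179 and 174 CPM in CP+siNC and 149.6, 152 and 151 CPM in CP+siNAT10. TK1, the salvage enzyme that phosphorylates thymidine, measured 68.0, 66.8 and 67.5 CPM in CP+siNC and 59.9, 58.9 and 57.9 CPM in CP+siNAT10. Their log2 fold changes were -0.22 (SE 0.0330, edgeR adjusted p = 3.10e-06) and -0.20 (SE 0.0396, edgeR adjusted p = 1.64e-04), and in both genes every CP+siNAT10 library was below every CP+siNC library. RRM1, the large subunit of the reductase and the partner of RRM2, was near the limit of the test, with a log2 fold change of -0.079 (SE 0.0324, edgeR adjusted p = 0.0498). That call was lost in 11 of 15 alternatives, over which the adjusted p ran from 0.0349 to 0.298, and leaving out any library except CP+siNC replicate 3 was enough to lose it. The partners of the same enzyme therefore differed in size of change: RRM2 kept 60.5% of its CP+siNC level and RRM1 kept 94.7%. A gene on the opposite strand, ENOSF1, overlaps TYMS with 55.1% as many counts, and RRM1-AS1 overlaps RRM1 with 23.6%. Whether the counting used strand is not given in the sources used here, so the levels of these genes may hold reads of their neighbours.

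The RRM2 promoter is shown because this gene fell most. Promoters were taken from RefSeq on GRCh38.p14, 300 bases around each gene's start, and were searched on both strands for TTTCGCGC, TTTGGCGC, TTTCCCGC and TTTGCCGC, which are E2F-like. The reverse complement of TTTCGCGC starts with the bases in which TTTCGCGC and TTTGGCGC end, so a stretch can hold more than 1 match. Such matches are set in capitals here and in the promoters shown further on. The RRM2 window at chr2:10122489-10122788 on the plus strand holds no match and so has no capitals, and neither does the other RRM2 entry, which says only that these letters are absent.
RRM2: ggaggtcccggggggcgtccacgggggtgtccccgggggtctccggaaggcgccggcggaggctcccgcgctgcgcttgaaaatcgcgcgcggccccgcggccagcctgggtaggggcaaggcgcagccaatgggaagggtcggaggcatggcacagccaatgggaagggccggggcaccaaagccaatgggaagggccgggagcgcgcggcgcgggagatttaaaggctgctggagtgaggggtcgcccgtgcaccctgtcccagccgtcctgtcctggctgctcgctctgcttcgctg

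**Figure D2:**
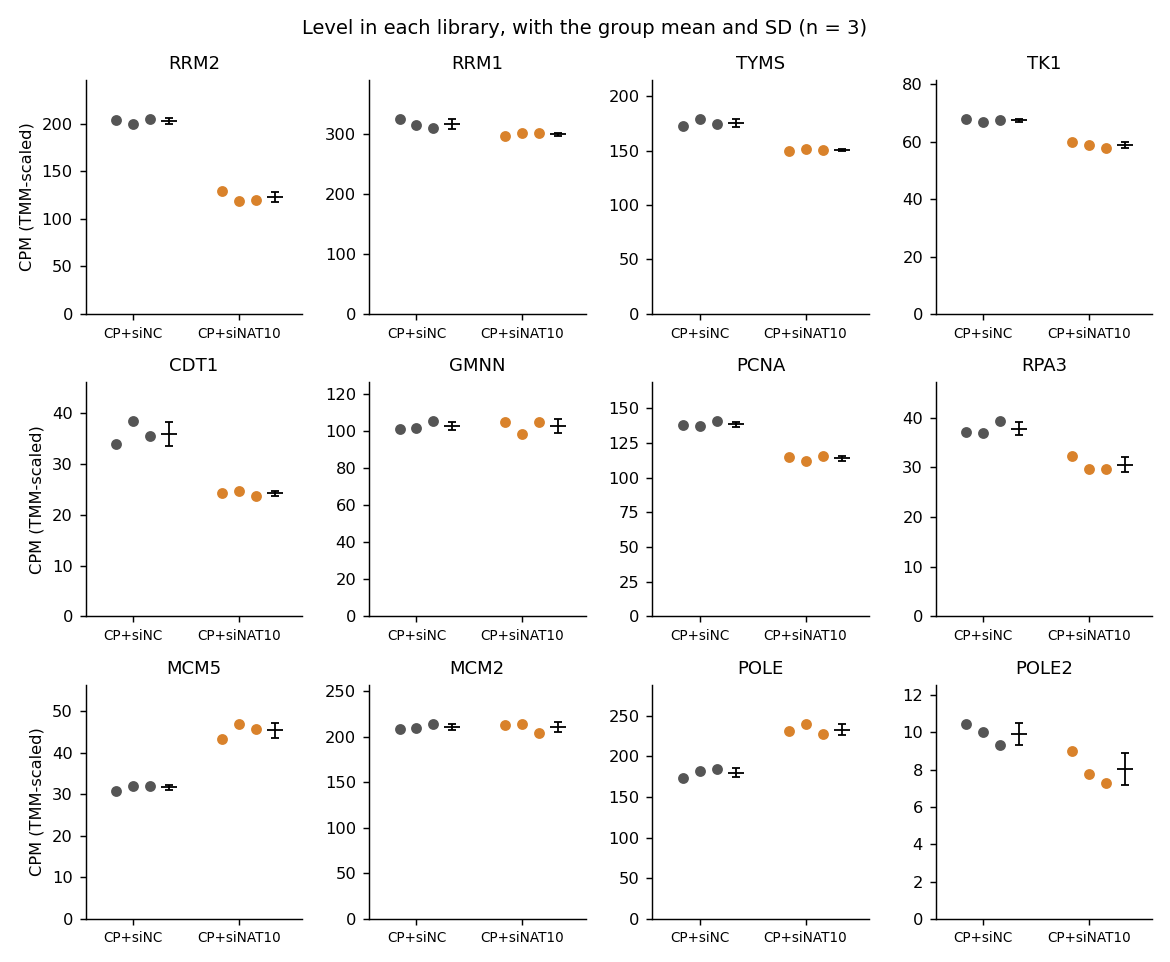
Level of 12 members in each library, in CPM scaled by TMM, with the group mean and SD (n = 3); each panel has its own axis from 0. RRM2, RRM1, TYMS, TK1, CDT1, PCNA, RPA3 and POLE2 lie lower in every CP+siNAT10 library, MCM5 and POLE lie higher, and GMNN and MCM2 overlap.

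Origin recognition was lower or uncalled in all of its 6 subunits. ORC1, the subunit whose ATPase drives loading, measured 24.5, 23.4 and 22.6 CPM in CP+siNC and 18.9, 18.8 and 20.2 CPM in CP+siNAT10. Its log2 fold change was -0.28 (SE 0.0597, edgeR adjusted p = 2.60e-04), with no overlap between the groups. ORC6, which takes part in helicase loading and was the most abundant subunit, fell by 0.15 on the log2 scale, and ORC3, a core subunit, fell by 0.17. The uncalled subunits ORC2, ORC4 and ORC5 had log2 fold changes of -0.091, -0.089 and -0.037. Summed over the 6 genes, the level in CP+siNAT10 was 90.2% of that in CP+siNC.

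Among the licensing factors CDT1 had the largest change. CDT1 (ENSG00000167513, chromosome 16, 88803789 to 88809258) measured 33.9, 38.4 and 35.5 CPM in CP+siNC and 24.3, 24.7 and 23.7 CPM in CP+siNAT10. The log2 fold change was -0.57 (SE 0.0541, edgeR adjusted p = 7.99e-10). The highest CP+siNAT10 library was well below the lowest CP+siNC library. GMNN encodes geminin, the protein that binds and inhibits CDT1 in S and G2 phase, and it measured 101, 102 and 105 CPM in CP+siNC and 105, 98.4 and 105 CPM in CP+siNAT10. The geminin groups overlapped, and the 95% interval of its log2 fold change ran from -0.078 to 0.076. CDC6, the ATPase that joins the origin complex to load the helicase, had a log2 fold change of -0.081 (SE 0.0349, edgeR adjusted p = 0.0626), which did not pass; over 15 alternatives its adjusted p ran from 0.0309 to 0.337, and it was called lower in 3 of them, without CP+siNC replicate 3, without CP+siNAT10 replicate 2 and with a stricter filter.

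The MCM2-7 helicase is a ring of 6 different subunits, and 3 of them were higher, none was lower and 3 were not called. MCM5 (ENSG00000100297, chromosome 22, 35400134 to 35425431) measured 30.9, 32.0 and 31.9 CPM in CP+siNC and 43.4, 46.9 and 45.8 CPM in CP+siNAT10. Its log2 fold change was 0.52 (SE 0.0483, edgeR adjusted p = 5.45e-10), the largest rise of any member. MCM3 measured 167, 168 and 165 CPM in CP+siNC and 182, 200.3 and 189.7 CPM in CP+siNAT10, a log2 fold change of 0.19 (SE 0.0360, edgeR adjusted p = 6.35e-05). MCM6, with means of 39.0 CPM (SD 1.95) and 44.8 CPM (SD 1.44), rose by 0.20 on the log2 scale. For these 3 subunits every CP+siNAT10 library was above every CP+siNC library. MCM2, MCM4 and MCM7 had log2 fold changes of -0.0012, 0.048 and 0.018, and their 95% intervals together spanned -0.069 to 0.114. Each of these 3 changed sign in at least 1 alternative, and scaling by library size only called MCM4 higher. Subunits that assemble in equal numbers thus had unequal changes in RNA. MCM8, a related helicase that acts with MCM9 in repair rather than in the MCM2-7 ring, had a log2 fold change of 0.12 (SE 0.0316, edgeR adjusted p = 0.0031); over 15 alternatives its adjusted p ran from 1.10e-04 to 0.0564, and the call was lost when a trend with gene length was removed. An overlapping gene on the same strand, ENSG00000286235, held 69.1% as many counts as MCM8, so the reads of these genes may have been split.

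Helicase activation moved in both directions. MCM10, which helps the activated helicase move off the origin, averaged 75.6 CPM (SD 0.760) and 66.2 CPM (SD 1.59) over the 3 libraries of each group, with a log2 fold change of -0.19 (SE 0.0388, edgeR adjusted p = 1.68e-04). GINS4, a subunit of the tetramer that binds MCM2-7 and CDC45, averaged 44.0 CPM (SD 1.71) and 50.4 CPM (SD 0.798), with a log2 fold change of 0.20 (SE 0.0448, edgeR adjusted p = 6.25e-04). In each of these genes the groups did not overlap. The other GINS subunits were not called, with log2 fold changes of -0.074 for GINS1, 0.15 for GINS2 and -0.10 for GINS3. CDC45, which completes the active helicase, averaged 48.2 CPM (SD 1.61) and 48.7 CPM (SD 0.764), and its groups overlapped. NINL lies opposite GINS1 with 99.7% as many counts, and GPAT4-AS1 lies opposite GINS4 with 27.9%.

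In polymerase epsilon POLE and POLE2 moved in opposite directions. POLE (ENSG00000177084, chromosome 12, 132623753 to 132687347), which copies the leading strand, measured 174, 183 and 184 CPM in CP+siNC and 232, 240.3 and 227 CPM in CP+siNAT10. This gave a log2 fold change of 0.37 (SE 0.0345, edgeR adjusted p = 6.10e-10). POLE2, the B subunit of the same enzyme, was a low-count gene at 10.5, 9.996 and 9.29 CPM in CP+siNC and 8.98, 7.78 and 7.30 CPM in CP+siNAT10. Its log2 fold change was -0.31 (SE 0.0941, edgeR adjusted p = 0.0076). Neither gene's groups overlapped, and the changes had opposite signs. The POLE2 call was lost without CP+siNAT10 replicate 3, and over 15 alternatives its adjusted p ran from 0.0021 to 0.0612.

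In polymerase delta, which extends the lagging strand, the accessory subunits POLD2 and POLD3 had log2 fold changes of 0.15 (SE 0.0437, edgeR adjusted p = 0.0059) and 0.10 (SE 0.0400, edgeR adjusted p = 0.0364). The catalytic subunit POLD1 measured 66.2, 65.7 and 70.4 CPM in CP+siNC and 65.7, 65.1 and 55.0 CPM in CP+siNAT10, a log2 fold change of -0.13 (SE 0.0518, edgeR adjusted p = 0.0491). The POLD1 fall came mainly from CP+siNAT10 replicate 3: without that library the log2 fold change was -0.042 and the call was lost, as it was without CP+siNC replicate 1 or 3 and in 8 of 15 alternatives in all. POLD2 lost its call without CP+siNAT10 replicate 2 and with the length trend removed, and POLD3 lost it without any library except CP+siNAT10 replicate 3 and with DESeq2. Over 15 alternatives the adjusted p ran from 0.0131 to 0.518 for POLD1, from 9.54e-04 to 0.0609 for POLD2 and from 0.0055 to 0.140 for POLD3. In the polymerase alpha-primase complex, the catalytic subunit POLA1 measured 21.4, 21.1 and 22.9 CPM in CP+siNC and 24.1, 27.4 and 26.4 CPM in CP+siNAT10, a log2 fold change of 0.25 (SE 0.0600, edgeR adjusted p = 9.15e-04). It was 0.15 with the length trend removed, and over 15 alternatives its adjusted p ran from 1.59e-04 to 0.0372. EEF1B2P3 lies opposite POLA1 with 44.4% as many counts. PRIM2, the large primase subunit, had the lowest level of the complex, 6.43 and 7.73 CPM on average, and a log2 fold change of 0.26 (SE 0.104, edgeR adjusted p = 0.0444) that was lost in 7 of 15 alternatives, with adjusted p from 0.0192 to 0.223. These 7 included leaving out any library except CP+siNAT10 replicate 3. The regulatory subunit POLA2 and the catalytic primase PRIM1 were not called, with log2 fold changes of 0.0081 and 0.0049. Same-strand neighbours overlap both, ENSG00000285816 with 80.0% as many counts as POLA2 and NACA with 4507% as many as PRIM1, so their values are uncertain.

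The promoters of POLE and POLE2 are shown as a pair because their genes encode subunits of the same enzyme and moved in opposite directions. Both windows hold TTTGGCGC, read on the opposite strand as the capitals show, close to the annotated start. POLE lies at chr12:132687293-132687592 and POLE2 at chr14:49688165-49688464, both on the minus strand and written from 5′ to 3′ along the gene.
POLE: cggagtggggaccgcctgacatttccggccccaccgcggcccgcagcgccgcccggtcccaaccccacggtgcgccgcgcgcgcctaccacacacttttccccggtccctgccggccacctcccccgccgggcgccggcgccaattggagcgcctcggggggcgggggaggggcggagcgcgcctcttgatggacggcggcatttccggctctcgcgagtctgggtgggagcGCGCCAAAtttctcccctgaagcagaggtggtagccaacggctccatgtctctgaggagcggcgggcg
POLE2: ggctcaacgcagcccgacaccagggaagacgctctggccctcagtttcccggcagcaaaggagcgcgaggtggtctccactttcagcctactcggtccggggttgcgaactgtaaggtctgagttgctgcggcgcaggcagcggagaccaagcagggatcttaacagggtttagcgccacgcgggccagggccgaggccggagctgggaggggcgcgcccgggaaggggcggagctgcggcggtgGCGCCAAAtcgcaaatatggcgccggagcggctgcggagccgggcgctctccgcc

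The same comparison within the MCM2-7 ring is shown by MCM6, which was higher, and MCM2, which was not called. The MCM6 window at chr2:135876394-135876693 on the minus strand holds a pair of separate stretches, each with 2 overlapping matches, and the MCM2 window at chr3:127598161-127598460 on the plus strand holds 2 in a stretch that begins just downstream of the annotated start. MCM5 had no entry. The CDT1 window at chr16:88803539-88803838 on the plus strand, added after its values were seen because CDT1 had the next largest fall after RRM2, holds TTTCCCGC on the opposite strand.
MCM6: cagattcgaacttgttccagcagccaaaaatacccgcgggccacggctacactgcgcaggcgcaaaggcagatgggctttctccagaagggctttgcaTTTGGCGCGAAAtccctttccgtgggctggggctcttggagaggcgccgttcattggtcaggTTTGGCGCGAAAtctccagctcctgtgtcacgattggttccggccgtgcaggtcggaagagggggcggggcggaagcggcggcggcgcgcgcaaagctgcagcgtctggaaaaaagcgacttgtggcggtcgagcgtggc
MCM2: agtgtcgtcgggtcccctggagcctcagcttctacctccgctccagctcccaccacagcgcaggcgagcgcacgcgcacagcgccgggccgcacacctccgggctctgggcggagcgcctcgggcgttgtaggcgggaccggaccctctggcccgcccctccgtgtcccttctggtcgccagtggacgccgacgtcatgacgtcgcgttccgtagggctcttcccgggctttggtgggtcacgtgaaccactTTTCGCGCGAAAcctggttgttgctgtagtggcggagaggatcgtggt
CDT1: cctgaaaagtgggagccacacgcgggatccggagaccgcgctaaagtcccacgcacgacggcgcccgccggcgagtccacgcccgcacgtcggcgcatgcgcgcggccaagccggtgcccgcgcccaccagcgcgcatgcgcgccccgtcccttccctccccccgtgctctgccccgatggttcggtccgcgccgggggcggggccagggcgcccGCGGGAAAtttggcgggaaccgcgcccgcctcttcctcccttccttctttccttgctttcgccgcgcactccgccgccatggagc

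Of the 49 members, 42 had a promoter entry, and 21 of these 42 held an E2F-like match. Among all genes with an entry the share was 3.99%, and among the tested genes with an entry it was 6.50%. TTTGAA and TTCGAA, which resemble the element of genes that peak in G2 and mitosis, were in 4.76% of the members with an entry and 15.2% of the tested genes with an entry. Of the 21 members with an E2F-like match, 5 were lower and 5 higher, where 22.3% and 21.8% of all genes tested were. Their median was -0.001 on the log2 scale. Of the 21 without, 9 were lower and 2 higher, and the median was -0.083. Whether members with a match differ from those without, or from all genes, was not tested. A match is a description of sequence and not of binding.

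The clamp and its loader were lower or uncalled. PCNA, the ring that holds polymerases on DNA, measured 138, 137 and 141 CPM in CP+siNC and 115, 112 and 116 CPM in CP+siNAT10. The fold change on the log2 scale was -0.28 (SE 0.0342, edgeR adjusted p = 9.14e-08), with every CP+siNAT10 library below every CP+siNC library. Of the 5 RFC subunits, which open the ring and close it around DNA, RFC4 had a log2 fold change of -0.17 (SE 0.0428, edgeR adjusted p = 0.0015) and the others ran from -0.083 to 0.055 without passing. RFC4 is overlapped on the opposite strand by EIF4A2, which held 405% as many counts.

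All 3 subunits of RPA, the trimer that coats single-stranded DNA, were lower. RPA3 measured 37.1, 37.0 and 39.3 CPM in CP+siNC and 32.3, 29.7 and 29.6 CPM in CP+siNAT10, a log2 fold change of -0.31 (SE 0.0508, edgeR adjusted p = 1.07e-05). RPA2, the subunit phosphorylated under replication stress, measured 64.9, 65.8 and 69.5 CPM in CP+siNC and 56.2, 53.1 and 55.7 CPM in CP+siNAT10, a log2 fold change of -0.28 (SE 0.0423, edgeR adjusted p = 3.25e-06). RPA1, the large subunit, fell by 0.21 on the log2 scale (SE 0.0379, edgeR adjusted p = 3.00e-05). In each subunit the groups did not overlap, and the point estimates lay within 0.1 of each other. FEN1, the nuclease that trims Okazaki fragment flaps, had a log2 fold change of -0.067 (SE 0.0344, edgeR adjusted p = 0.118) and was not called, although its groups did not overlap.

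Among the regulators of S phase entry, CCNE2, a cyclin that activates CDK2, was lower, averaging 159 CPM (SD 3.65) in CP+siNC and 142 CPM (SD 2.04) in CP+siNAT10, with a log2 fold change of -0.16 (SE 0.0338, edgeR adjusted p = 2.43e-04). INTS8 lies opposite CCNE2 with 46.6% as many counts. The paralog CCNE1 averaged 54.8 CPM (SD 1.64) and 55.7 CPM (SD 1.83), with overlap. The transcription factors E2F1 and E2F2 were not called, with log2 fold changes of 0.040 (95% interval -0.070 to 0.151) and 0.18 (95% interval -0.204 to 0.570). E2F2 was the least abundant member, near 2 CPM, and its interval is too wide to tell a rise from a fall.

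Because subunits of a complex moved apart, the ratio of 6 pairs was taken in each library. The pairs were chosen after their values were seen, so the ratios are a description with no test. Counts per kilobase of gene model gave an RRM2 to RRM1 ratio of 0.290, 0.293 and 0.306 in CP+siNC and 0.201, 0.182 and 0.184 in CP+siNAT10. The ratio of CDT1 to its inhibitor GMNN averaged 0.314 (SD 0.0217) in CP+siNC and 0.212 (SD 0.0119) in CP+siNAT10. The MCM5 to MCM2 ratio was 0.0961, 0.0992 and 0.0965 in CP+siNC and 0.132, 0.142 and 0.145 in CP+siNAT10. None of these ratios depends on the library scaling, since both genes of a pair share it, and in each the groups did not overlap. POLE2 to POLE fell to 62.4% of its CP+siNC mean. DBF4, the activator of the origin-firing kinase CDC7, and CDC7 itself moved apart as well, and their mean ratio went from 1.42 (SD 0.0282) to 0.866 (SD 0.0212). For the topoisomerases TOP2A, which peaks in G2 and mitosis, and TOP1, which relaxes DNA throughout the cycle, it went from 2.44 (SD 0.0736) to 1.36 (SD 0.0255).

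**Figure D3:**
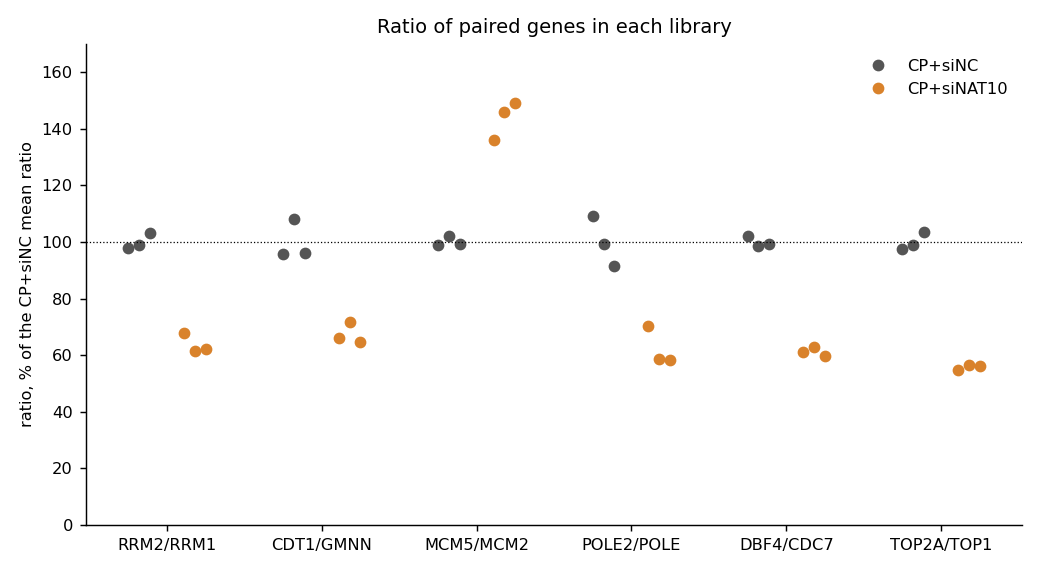
Ratio of the levels of 6 gene pairs in each library, as a percentage of the mean ratio in CP+siNC, with each point a library and the axis from 0. MCM5/MCM2 lies above 100 in all 3 CP+siNAT10 libraries, with a mean of 143.7%, and the other pairs lie below it, down to 55.8% for TOP2A/TOP1.

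Between genes, levels were compared as RPKM, the CPM per kilobase of gene model. The table's length joins every annotated exon of a gene, so an abundant short transcript of a long model is understated. In CP+siNC the highest levels were those of PCNA at 98.9, RRM1 at 74.8 and TYMS at 72.5 RPKM, and the lowest were PRIM2 at 1.14 and E2F2 at 0.376 RPKM. By principal transcript, which is explained below, ORC6 led at 142 RPKM, followed by TYMS at 106, RRM1 at 103.0 and PCNA at 102, so the order at the top depends on the length used. Within MCM2-7 the order was MCM3 at 45.7, MCM2 at 44.7, MCM7 at 39.2, MCM4 at 22.8, MCM6 at 9.42 and MCM5 at 4.35 RPKM. With the length of the principal transcript in GENCODE 29, an alternative chosen after the values were seen, MCM7 led at 65.8 RPKM and MCM5 was again lowest at 8.94, with MCM6 at 10.4. In CP+siNC the subunit that rose most was thus the scarcest of its ring by both lengths, while in CP+siNAT10 MCM6 was the scarcest by principal transcript, at 11.98 RPKM beside 12.83 for MCM5. RRM2 was at 22.2 RPKM by gene model and 59.1 by principal transcript, against 74.8 and 103.0 for RRM1. The size of the RRM2 to RRM1 ratio therefore depends on the length used, while its fall between the groups does not.

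Genes outside the 49 were counted from lists of the same pathways, which were also chosen with earlier results of these data known. Of 31 other replication factors, 10 were lower and 10 higher, and the median was 0.045 on the log2 scale. With DESeq2, 6 were higher. In this list TOP1 rose by 0.49 on the log2 scale (95% interval 0.413 to 0.557, edgeR adjusted p = 3.66e-12). DBF4 fell by 0.50 (SE 0.0388, edgeR adjusted p = 1.49e-11), TOP2A fell by 0.36 and DSCC1, which joins a clamp loader used in cohesion, fell by 0.38. POLD4, the smallest subunit of polymerase delta, rose by 0.35, and POLE3, a histone-fold subunit of polymerase epsilon and the most abundant gene of the list at 208 RPKM, was not called at 0.035, nor was its partner POLE4 at 0.0021. CDC7, the partner of DBF4, rose by 0.21.

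Of 40 other nucleotide supply genes, 10 were lower and 14 higher, and the count of lower genes was 6 with no filter. The median was 0.019, and whether this list differs from the 4 deoxynucleotide members was not tested. HPRT1, which salvages hypoxanthine and guanine, averaged 45.4 CPM in CP+siNC and 17.0 CPM in CP+siNAT10 and had a log2 fold change of -1.42 (SE 0.0542, edgeR adjusted p = 4.28e-18). CMPK1, a UMP and CMP kinase, had a log2 fold change of -0.46, RRM2B, the p53-inducible counterpart of RRM2, -0.34, the nucleoside transporter SLC29A1 -0.31 and the nucleotide hydrolase DCTPP1 -0.29. The DCTPP1 call was lost in 6 of 15 alternatives, over which its adjusted p ran from 0.0176 to 0.111. These 6 were no filter, DESeq2, the length trend removed, and leaving out CP+siNC replicate 3, CP+siNAT10 replicate 1 or CP+siNAT10 replicate 3. The rises past 1.2-fold were ADK at 0.60, APRT at 0.51, IMPDH1 at 0.41, PFAS at 0.35, CTPS1 at 0.34 and CTPS2 at 0.32. These are adenosine kinase, adenine salvage, the first step to GMP, a step of purine synthesis and both CTP synthases. Enzymes of the same roles were lower by less than 1.2-fold: PPAT, the first step of purine synthesis, at -0.24, the deoxynucleoside kinase DCK at -0.22 and IMPDH2, the other isozyme of IMPDH1, at -0.099. Others of the list were called higher by less than 1.2-fold, among them DCTD at 0.25, TK2 at 0.24, UMPS at 0.22, ATIC at 0.21 and GART at 0.10. NME2, a nucleoside diphosphate kinase and the most abundant of the list at 72.5 RPKM, had a log2 fold change of -0.096. The small reductase subunits RRM2 and RRM2B were thus both lower.

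Of 35 G1/S control genes, 11 were lower and 11 higher, with a median of -0.047. CCND1, the cyclin D that activates CDK4 and CDK6, had a log2 fold change of -1.41 (SE 0.0345, edgeR adjusted p = 1.47e-22). Its relatives CCND2 at -1.09 and CCND3 at -0.31 were lower too. CDK inhibitors moved in both directions: CDKN2D at -0.97, CDKN1C at -0.46 and CDKN1A at -0.41 were lower and CDKN1B at 0.31 was higher. The CDKN1C call was lost without CP+siNC replicate 2 and with DESeq2, and its adjusted p ran from 0.0035 to 0.0570 over 15 alternatives. CCNA1, a cyclin of the germ line, was lower at -0.73, and E2F5, a repressor E2F, was lower at -0.29. Of the pocket proteins, RBL1 at 0.83 and RBL2 at 0.33 were higher and RB1 at -0.25 was lower, and E2F4, a partner of RBL1 and RBL2, was higher at 0.42. Also higher were FBXW7, which targets cyclin E for destruction, at 0.43, CDC25A, which activates CDK2, at 0.28 and MYBL2, the most abundant of the list at 113 RPKM, at 0.35.

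Of 14 replication checkpoint genes, 5 were lower and 3 higher, with a median of -0.078. The count of lower genes dropped to 3 without CP+siNC replicate 1, CP+siNAT10 replicate 2 or CP+siNAT10 replicate 3, and also with library size only, no filter or a replicate block. CHEK1, the kinase that restrains origin firing, had a log2 fold change of -0.30, RAD1, part of the checkpoint clamp, -0.32, CDC25C, a phosphatase of mitotic entry, -0.31 and ATM, the kinase of double-strand breaks, 0.48, or 0.32 with the length trend removed. CLSPN, which brings CHEK1 to its activator and was the most abundant of the list at 60.8 RPKM, had -0.085. It was also counted as lower among the other replication factors. Of 10 genes of chromatin assembly and DNA methylation maintenance, 3 were lower and 3 higher and none passed 1.2-fold. SLBP, which binds histone mRNA, had -0.22, UHRF1 -0.14 and its partner, the methyltransferase DNMT1, 0.15, and the most abundant, SUPT16H, was at 0.0009. Of 20 mitotic markers, 13 were lower and 2 higher, with a median of -0.205. The count of higher genes dropped to 1 without CP+siNC replicate 2 or CP+siNAT10 replicate 2 and with DESeq2. The falls past 1.2-fold were PLK1 at -0.49, FOXM1 at -0.47, CDK1 at -0.46, CCNB1 at -0.43, CDC20 at -0.38, CENPE at -0.37, UBE2C at -0.30 and BIRC5 at -0.28, while MKI67, the most abundant at 165 RPKM, had -0.17. The mitotic list thus had a larger share of falls, 65.0%, than the members, 34.7%. Whether the lists differ was not tested.

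**Figure D4:**
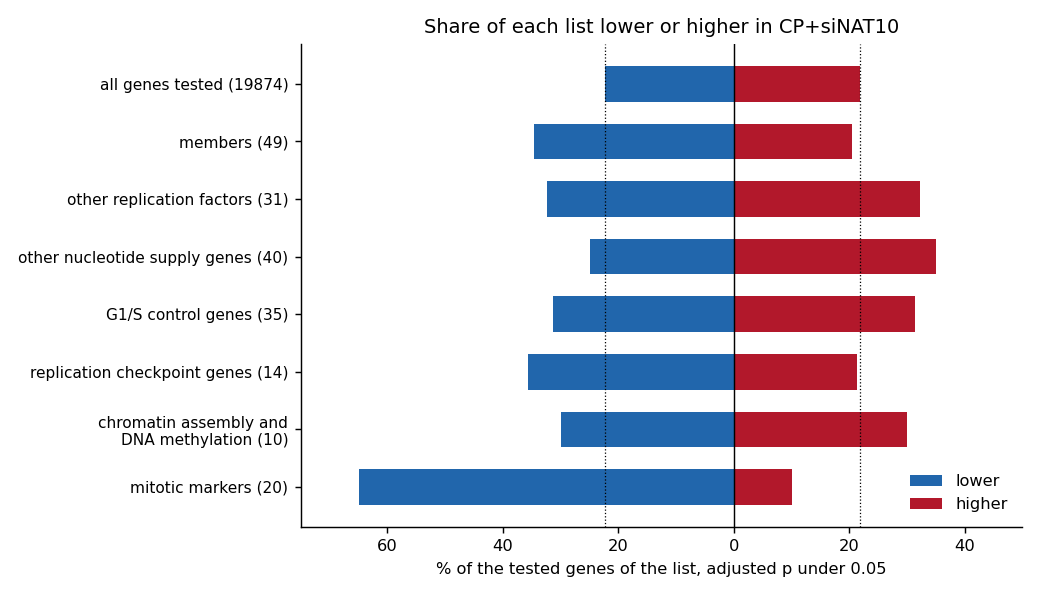
Share of the tested genes of each list that were lower (left) or higher (right) in CP+siNAT10 at an adjusted p under 0.05, with the number of genes in brackets and dotted lines at the shares of all genes tested, 22.3% and 21.8%. The members reach 34.7% lower and 20.4% higher, and 65.0% of the mitotic markers were lower.

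Gene model length moved with the result. Among all genes tested, sorted into 5 classes of about equal number, the median log2 fold change was -0.015, -0.040, -0.023, 0.025 and 0.084 from the shortest to the longest. No member was in the shortest class. In the 4 others the members' medians were -0.128, -0.044, 0.018 and 0.048. Of the 14 members between 1387 and 3038 bases, 7 were lower and none was higher, where 24.2% and 12.8% of all genes of that class were. Of the 9 members of 7625 bases or more, 1 was lower and 4 were higher, where 20.8% and 37.9% of all genes of that class were. RRM2, at 9153 bases, is that 1. With the length trend removed from the fit, 16 members were lower and 8 higher, and 4 were lower past both limits where 7 had been. The members' median was then -0.030. The share of all genes called under that setting is not given here. Over all alternatives the genes lower past both limits ran from 1591 with glmTreat to 3020, beside 2965 in the main fit. RRM2, CDT1, MCM5 and POLE were called in the same direction in all 15 alternatives, with POLE between 0.29 and 0.41 and MCM5 between 0.49 and 0.56.

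**Figure D5:**
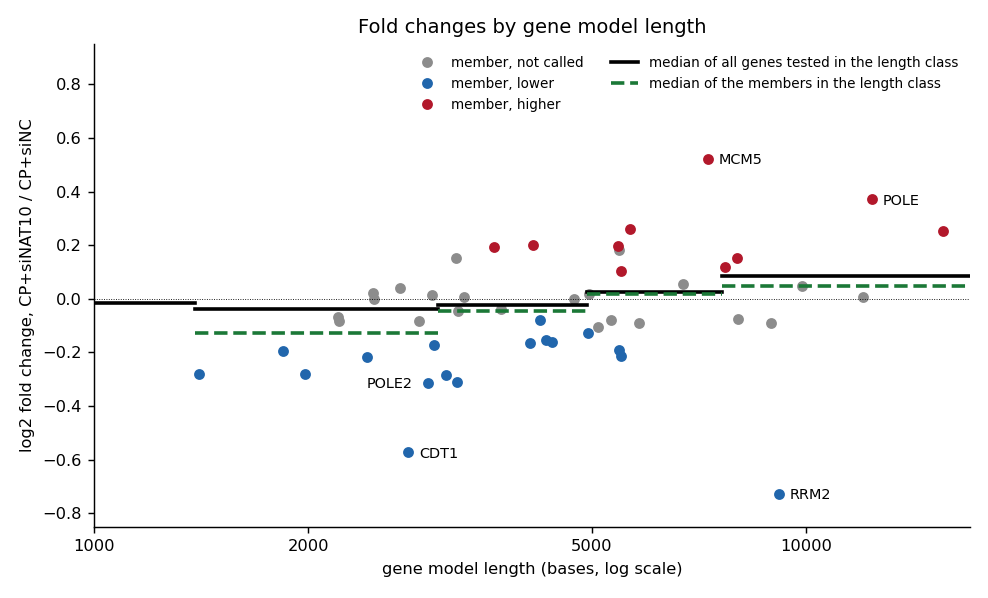
Log2 fold change of each member against its gene model length on a log scale, coloured by call, with the median of all genes tested (black) and of the members (dashed) in each length class. The members' medians run from -0.128 in their shortest class to 0.048 in the longest, and RRM2 lies far below its class.

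Transcripts can also be lowered by an siRNA through short matches of its seed in 3′ UTRs. All heptamers carried by enough genes, 15866 in number, were scored by the fold changes of their carriers in these same data, corrected for UTR length and base composition. The 3 lowest scores were those of ACTATCA, then of CATATTC, then of GACTATC, which were thus chosen by outcome and are given as a description. At least 1 of them was in the longest 3′ UTR of 17.3% of the protein-coding genes tested, whose median log2 fold change was -0.082 beside 0.031 for genes without. Among the members 5 carried a heptamer, 10.2%, and these were MCM8, GINS2, ORC3, ORC4 and POLD3. Their median was 0.10 beside -0.070 for the other members, with 1 lower, ORC3, and 2 higher, MCM8 and POLD3. Of the 2264 protein-coding carriers tested, 916 were lower and 447 higher. The site of ORC3 is shown with the heptamer in capitals.
ORC3: aagccagaACTATCAcatttagc

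None of the 7 members that fell past 1.2-fold, which were RRM2, CDT1, ORC1, PCNA, POLE2, RPA2 and RPA3, carried any of the 3 heptamers. Among all members the share of carriers was 10.2%. Among the genes of the other pathway lists past 1.2-fold, HPRT1 carried ACTATCA and GACTATC, and CCND1, CCND2, CDKN2D, DBF4, CMPK1, RRM2B, CHEK1, CENPE and ATM carried CATATTC. Of these carriers only ATM was higher, and among the cell type markers past 1.2-fold the carrier CDH6 was higher too, at 0.47. The heptamers were chosen by low fold changes of their carriers in these same data, so mostly lower carriers follow from that choice. The part of seed matches in these changes was not tested.

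The label of the cells was checked on marker genes. Of 5 genes of simple epithelium 4 were tested, 1 was lower and 1 higher, and the most abundant, KRT8, averaged 1455 CPM in CP+siNC and 1450 CPM in CP+siNAT10, while CDH1 had 6 counts in all libraries together. KRT18, the keratin partner of KRT8, was the lower gene at 77.8% of the CP+siNC level, and EPCAM was the higher gene at 124%. Of 12 proximal tubule genes 6 were tested, 2 lower and 3 higher, led by LHX1. The defining transporters and receptors of the tubule were at or near 0: SLC22A6 had 0 counts in all libraries together, SLC22A8 had 1, LRP2 had 3, CUBN had 23 and SLC34A1 had 34. The line therefore had the keratins of an epithelium and the factors PAX8 and LHX1, without the transport genes of the mature tubule. Summed over the 12 genes, counts relative to library size were 221, 236 and 239 CPM in CP+siNC and 268, 286 and 288 CPM in CP+siNAT10. None of 5 endothelial genes was tested, with at most 23 counts for any of them. Of 7 fibroblast genes 3 were tested and COL1A1 was higher, and of 6 leukocyte genes 3 were tested and 2 were higher, CD68 at 0.40 and PTPRC at 0.96, the latter on 81 counts in all libraries together. CD68, a lysosomal protein that epithelial lines also express, made up most of the leukocyte sum, which was 132% of the CP+siNC level in CP+siNAT10. The cause of that rise was not tested.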

How the data were processed

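The count values are read counts per gene as deposited by the authors, with gene model lengths. The submitters' processing notes name Trimmomatic 0.36, STAR 2.5.3a, featureCounts of Subread 1.5.1 and edgeR 3.12.1 on GRCh38, and the libraries were made from RNA with a stranded mRNA kit that adds molecular identifiers. Whether identifiers were merged, whether strand was used in counting and which annotation was used are not given in the sources used here. Counts were filtered with filterByExpr of edgeR 4.0.16 (10 counts, 15 in total), scaled by TMM and fitted with the quasi-likelihood test in R 4.3.3, with Benjamini-Hochberg adjustment over all 19874 genes tested. A gene was called at an adjusted p under 0.05. Genes outside the members were named if called with a fold change over 1.2, if the most abundant of a list, or if partner to a named gene. Some called genes under 1.2-fold were named as examples. The members and lists were chosen with earlier results of these data known. Alternatives were RLE, upper quartile and library size scaling, no filter, a stricter filter (1 CPM in all libraries), a replicate block, DESeq2 1.42.0, the edgeR exact test, glmTreat against 1.2-fold, removal of a length trend and leaving out each library. Principal transcript lengths from GENCODE 29 were chosen after seeing the data. Promoters came from RefSeq on GRCh38.p14. The fitting was tested on simulated counts in which few genes changed and no trend with gene length was present. Tables and figures used Python 3.11.15, pandas 2.3.3, numpy 2.4.6 and matplotlib 3.10.9.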

Additional observations from a re-analysis of the deposited data

How the results depend on the processing

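Of the 27 members called, 20 kept their call in all 15 alternatives that refit every gene, and the members lower ran from 14 to 18 and those higher from 7 to 12. Over the same alternatives all genes lower ran from 3431 to 4520 and all genes higher from 3221 to 5050. No called member changed direction. Past 1.2-fold, library size scaling gave 4 members lower and 4 higher (7 and 2 before) with a median log2 fold change of -0.0294, where the median of all genes moved from 0.007 to 0.0444. Removal of the length trend gave 4 lower with a median of -0.0303, and glmTreat gave 2 lower (1591 genes lower and 1319 higher in all). Leaving out each library moved the median between -0.0725 and -0.0417.

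Signs that turned were all of members not called. MCM2 was at 0.0367 with library size scaling, 0.0102 with no filter and 0.014 with the length trend removed, and GMNN at 0.0366, 0.0104 and 0.0494. ORC5 was at 9e-04 with library size scaling, PRIM1 at -1e-04 with upper quartile scaling, and MCM4 at -0.0197 and POLA2 at -0.0733 with the length trend removed. Library size scaling raises all genes by about the amount by which MCM2, GMNN and ORC5 moved under it, so those turns follow from the scaling. Leaving out each library gave -0.0137 to 0.0209 for MCM2, -0.0055 to 0.0366 for MCM7, -0.016 to 0.03 for GMNN, -0.0131 to 0.0342 for CDC45, -0.1148 to 0.0233 for ORC5, -0.0357 to 0.0477 for POLA2, -0.0366 to 0.0412 for PRIM1, -0.0029 to 0.0502 for CCNE1 and -0.0029 to 0.0841 for E2F1. Of the other turns the cause was not tested.

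With a replicate block, 4318 genes were lower and 4208 higher, and 15 members were lower and 10 higher, with RRM1 and POLD1 no longer called. Deviations of each library from its group mean were correlated over genes between the groups. For libraries that share a number the correlations were 0.0081, 0.0639 and -0.2053. For libraries with different numbers they ran from -0.2171 to 0.1983. The number therefore did not mark pairs in the data, and the cause was not tested.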
